A study of Homo sapiens with 4 samples.

Results

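The genes described here are the human solute carriers (SLC) that move amino acids across membranes: every protein-coding gene of the deposited table whose symbol belongs to family SLC1, SLC3, SLC6, SLC7, SLC36, SLC38 or SLC43. By this rule 52 of the 33845 genes in the table were members, out of 16872 protein-coding genes. They comprised 7 SLC1, 2 SLC3, 16 SLC6, 12 SLC7, 2 SLC36, 10 SLC38 and 3 SLC43 genes. The rule used names alone and no measured value. It takes in the whole of SLC6, which also carries neurotransmitters, betaine, taurine and creatine.

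SW620 is an established line of human colorectal cancer cells derived from a lymph node metastasis. One line, called GAP43 cells here (2 libraries), carried a stably transfected Flag-GAP43 plasmid and overexpressed GAP43, a growth-associated protein of neurons. The other, called Control cells (2 libraries), carried a stably transfected control plasmid, and all cells were at passages 12 to 15 in a serum medium with added L-glutamine. The study asked how the transcriptome of these cells changes when GAP43 is overexpressed. Whether each line was 1 clone or a pool, and which promoter drove the plasmid, is not given in the sources used here, so an effect of GAP43 and a difference between the lines cannot be told apart.

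Levels are given as FPKM, fragments that the authors scaled to gene length and library, so that levels can be set beside each other between genes. GAP43 itself was at 16.3 and 9.89 FPKM in GAP43 cells, against 4.40 and 4.14 FPKM in Control cells. Both GAP43 libraries were above both Control libraries (log2 fold change 1.38, SE 0.24, limma unadjusted p = 0.00117, adjusted p = 0.692). That adjusted p was the lowest reached by any gene tested. The fragments recovered from the values summed to 17473071 to 21883137 per library. The most distant library was GAP43 replicate 2, whose log2(FPKM + 1) values over genes gave Pearson correlations of 0.940 to 0.952 against the other 3. The mitochondrial share of fragments was 4.93% and 6.78% in GAP43 cells, against 4.25% and 3.68% in Control cells. Of 12 epithelial markers listed, 9 averaged 1 FPKM or more, EPCAM and KRT8 among them, while CDX1, KRT20 and CEACAM5 did not. Markers of fibroblasts summed to 7.32 and 7.09 FPKM in GAP43 libraries and to 6.15 and 9.58 FPKM in Control libraries, most of it LUM, with COL3A1 at 0 and COL1A1 and PDGFRB under 1 FPKM but higher in both GAP43 libraries than in both Control libraries. Endothelial markers summed to at most 0.760 FPKM and leukocyte markers to at most 0.416 FPKM in any library, and SYT1 alone carried the neuronal list, at 27.4 and 11.6 FPKM in GAP43 cells and 22.3 and 30.3 FPKM in Control cells. In bulk RNA, fewer cells of a type and less RNA per cell cannot be told apart.

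Many amino acid carriers are either exchangers, which swap an amino acid outside for one inside, or concentrative carriers, which draw amino acids in with sodium or protons. Several SLC7 proteins, the light chains, reach the plasma membrane only when joined by a disulfide bond to a heavy chain, SLC3A2 (4F2hc, CD98) or SLC3A1 (rBAT). In proliferating cells such as tumour lines, glutamine brought in by SLC1A5 and SLC38 carriers and leucine exchanged by SLC7A5 feed mTORC1, the kinase complex that couples amino acids to growth. When amino acids run short, the transcription factor ATF4 is translated more and raises the transcripts of many of these carriers through elements in their promoters.

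The letters TGATGNAA, the core of such an ATF4 response element, were searched on both strands of windows from 250 bases before to 50 bases after each RefSeq start site (300 bases, GRCh38.p14). They stood in 1270 of 35116 windows of all genes (3.62%), with no filter on level, and in 6 of 61 windows of members (9.84%). Among these were 5 of 38 windows of tested members (13.2%), which covered 21 of the 26 tested members. The 5 matches are all those found in tested members. Of their genes, SLC1A5, SLC3A2 and SLC38A1 were among the 6 carriers of highest mean, and SLC7A1 had a mean of 20.5 FPKM. SLC1A4, SLC3A2, SLC38A1 and SLC7A1 were highest in Control replicate 2. So were 12 of the 26 tested members (46.2%) and 32.6% of all genes. A link between the matches and this library was not tested. Each line gives 30 bases on the gene's strand with the match, or its reverse complement, in capitals.
SLC1A4: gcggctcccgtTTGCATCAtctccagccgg
SLC1A5: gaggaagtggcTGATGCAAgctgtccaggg
SLC38A1: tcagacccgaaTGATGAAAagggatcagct
SLC3A2: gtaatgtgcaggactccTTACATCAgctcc
SLC7A1: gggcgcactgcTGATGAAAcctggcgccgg
The stretches lie at chr2:64989381-64989410 for SLC1A4, chr19:46784893-46784922 for SLC1A5, chr12:46266502-46266531 for SLC38A1, chr11:62881719-62881748 for SLC3A2 and chr13:29595663-29595692 for SLC7A1. The first base of the match was at -7 from the start site in SLC1A4, -97 in SLC1A5, -4 in SLC38A1, 38 in SLC3A2 and 8 in SLC7A1. For SLC1A4, SLC1A5, SLC38A1 and SLC3A2 the match was at 1 of several RefSeq start sites. A match of letters is not a measured binding site.

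Of the 52 carriers, 26 averaged 1 FPKM or more across all 4 libraries and were tested, and the other 26 did not reach that mean. The tested members were 3 of 7 SLC1, 1 of 2 SLC3, 3 of 16 SLC6, 6 of 12 SLC7, both SLC36, 8 of 10 SLC38 and all 3 SLC43 genes. Their means spread widely, with 13 members between 1.49 and 9.95 FPKM, 7 between 13.3 and 27.7 FPKM and 6 between 56.9 and 268 FPKM. The 6 were SLC1A5, SLC7A5, SLC3A2, SLC38A2, SLC38A5 and SLC38A1. SLC1A5 ranked 96 of all 16872 protein-coding genes by mean FPKM, SLC7A5 ranked 178, SLC3A2 379, SLC38A2 397, SLC38A5 416 and SLC38A1 665.

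**Figure D1:**
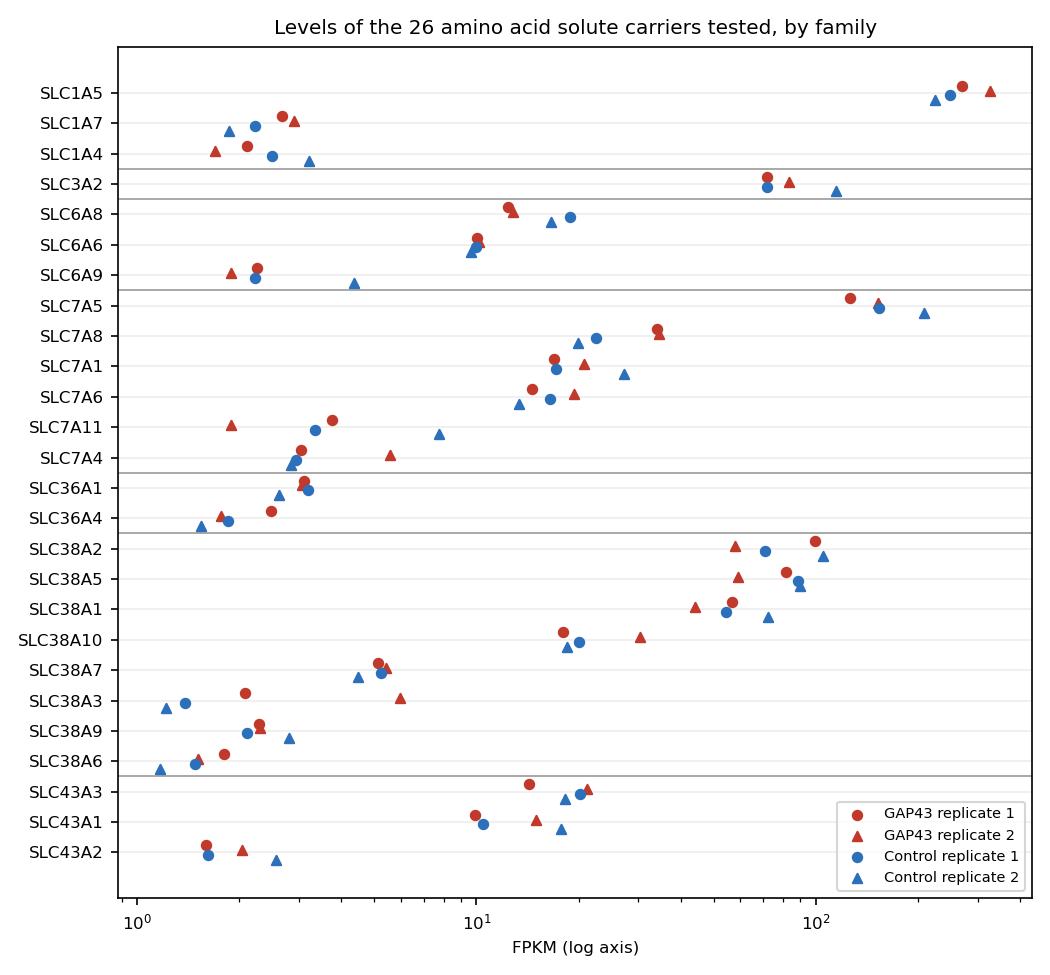
FPKM on a log axis (x) of the 26 tested carriers (y, by family), with 1 point for each GAP43 and each Control library. SLC1A5 has the highest mean, at 268 FPKM, and the points of the 2 groups are mixed for most genes.

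Together the 52 carriers summed to 871 and 928 FPKM in GAP43 cells, against 856 and 994 FPKM in Control cells, which was 0.302% and 0.351% of the library's FPKM in GAP43 cells and 0.293% and 0.323% in Control cells. The 4 most abundant, SLC1A5, SLC7A5, SLC3A2 and SLC38A2, held 65.2% and 67.0% of the carriers' FPKM in GAP43 cells and 63.7% and 65.7% in Control cells. By family, SLC1 held 31.5% and 35.8% in GAP43 cells and 29.7% and 23.1% in Control cells. SLC7 held 22.9% and 25.4% in GAP43 cells and 25.3% and 28.1% in Control cells. SLC38 held 30.8% and 22.3% in GAP43 cells and 28.6% and 29.8% in Control cells. The SLC1 share was thus higher in both GAP43 libraries than in both Control libraries, while the SLC7 and SLC38 shares overlapped between the groups. Each of SLC3, SLC6, SLC36 and SLC43 held at most 11.6% in any library, and SLC6 alone among them did not overlap, at 2.94% and 2.88% in GAP43 cells and 3.71% and 3.12% in Control cells. Shares and ratios are given without a test, since an exact two-sided permutation test of 2 libraries against 2 cannot give a p below 0.33.

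**Figure D2:**
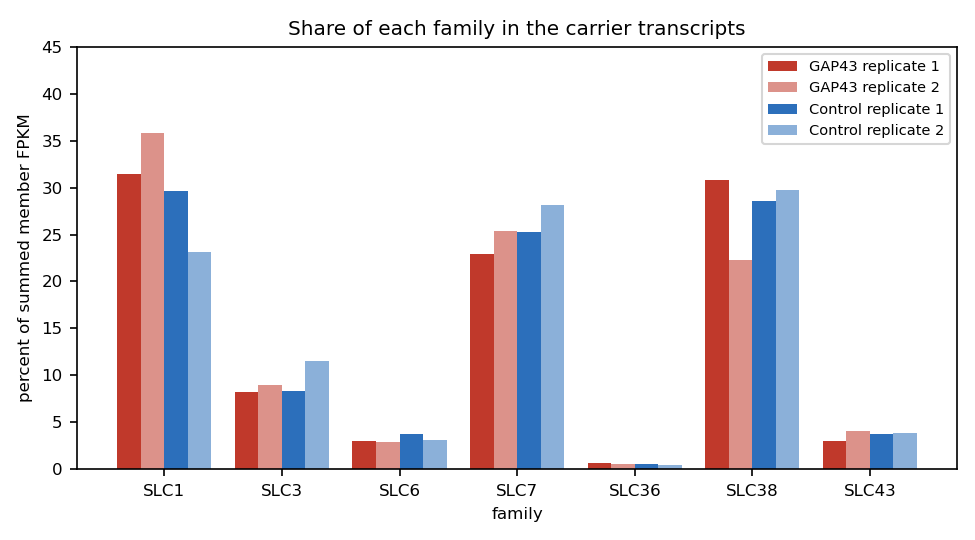
Share of the summed carrier FPKM held by each family (y, percent) in each of the 4 libraries (bars from 0), by family (x). SLC1, SLC7 and SLC38 hold most of it in every library, and SLC1 is lowest in Control replicate 2, at 23.1%.

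Across the tested carriers, no member passed the adjusted threshold in GAP43 cells against Control cells with limma (0 of 13507 genes did, 0%, and 0 with voom on recovered fragments). At an unadjusted p under 0.05, 2 of 26 members were higher in GAP43 cells, SLC7A8 and SLC38A3, beside 3.05% of all genes tested, and 1 of 26 was lower, SLC6A8, beside 2.84%. Both GAP43 libraries lay above both Control libraries for 7 members (26.9%), beside 17.1% of all genes. They lay below for 4 members (15.4%), beside 24.1% of all genes, and the groups overlapped for the other 15, as they did for 58.8% of all genes. The median log2 fold change, GAP43 minus Control on log2(FPKM + 1), was -0.09 over the 26 members, -0.03 over the 140 tested genes of the other SLC families and -0.04 over all genes. Of the 26 members, 12 had a log2 fold change above 0 and 14 below 0.

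**Figure D3:**
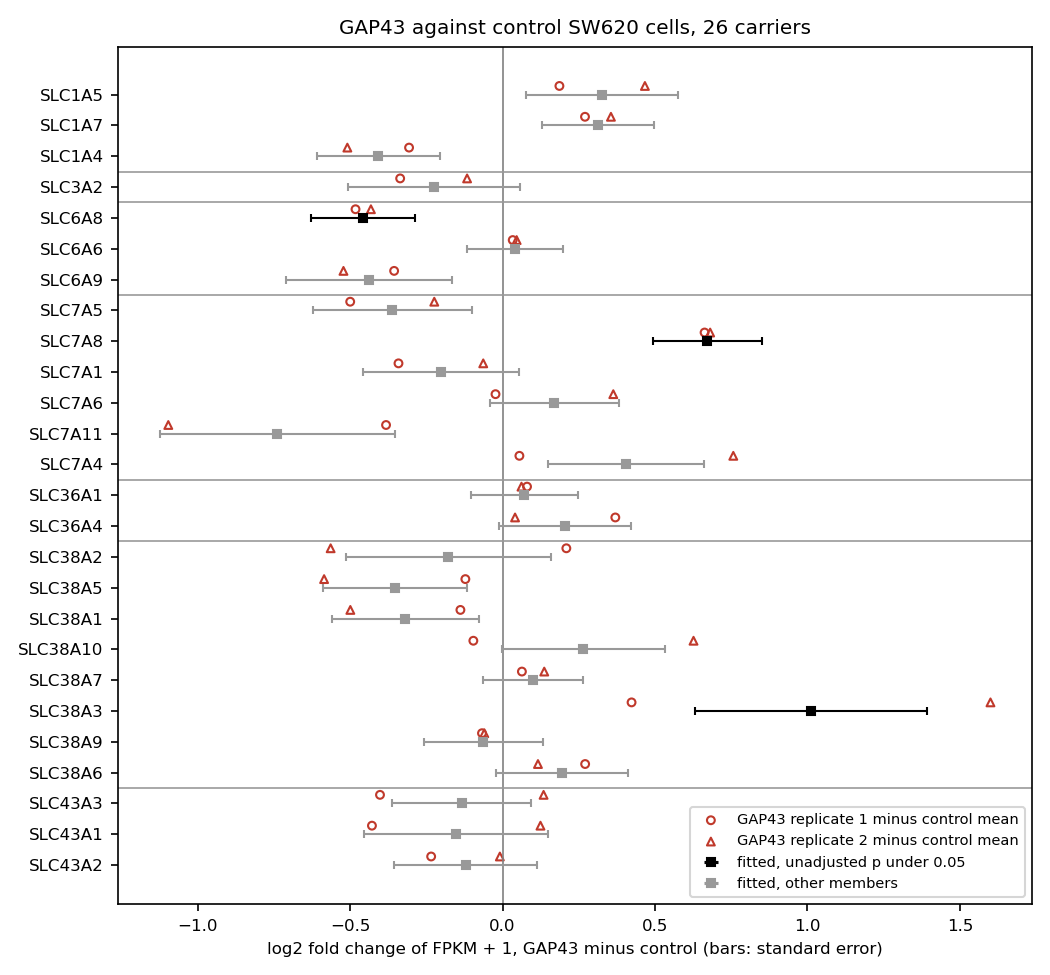
Log2 fold change of each tested carrier, GAP43 minus Control on log2(FPKM + 1) (x), with bars of 1 standard error from limma, by family (y). SLC38A3 and SLC7A8 lie farthest above 0, at 1.01 and 0.67, and SLC7A11 farthest below, at -0.74.

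In the SLC1 family, the neutral exchangers SLC1A5 and SLC1A4 stood on opposite sides. SLC1A5 (ASCT2; minus strand, chr19:46774883-46788594 on GRCh38), the main glutamine carrier of many cancer cells, was at 269 and 327 FPKM in GAP43 cells, against 249 and 225 FPKM in Control cells. The groups did not overlap, with GAP43 replicate 2 highest, and the means were 298 ± 41.0 and 237 ± 17.4 FPKM (SD, n = 2 each; log2 fold change 0.33, SE 0.25, limma unadjusted p = 0.238, adjusted p = 0.717). Without GAP43 replicate 1 the log2 fold change was 0.47, and without GAP43 replicate 2 it was 0.19. SLC1A4 (ASCT1), which exchanges serine, alanine and cysteine, was far less abundant, at 2.10 and 1.70 FPKM in GAP43 cells and 2.50 and 3.21 FPKM in Control cells. Here the GAP43 libraries were the lower ones, without overlap (log2 fold change -0.41, SE 0.20, limma unadjusted p = 0.0873, adjusted p = 0.692). SLC1A7 (EAAT5), a glutamate carrier known from the retina, was at 2.67 and 2.89 FPKM in GAP43 cells and 2.23 and 1.87 FPKM in Control cells. Its groups did not overlap either (log2 fold change 0.31, SE 0.18, limma unadjusted p = 0.138). The other 4 glutamate carriers of the family, SLC1A1, SLC1A2, SLC1A3 and SLC1A6, were below a mean of 1 FPKM.

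The heavy chain SLC3A2 was at 71.7 and 83.7 FPKM in GAP43 cells, against 71.6 and 115 FPKM in Control cells. Control replicate 2 was the highest library, and the other 3 lay close together (log2 fold change -0.23, SE 0.28, limma unadjusted p = 0.452, and 0.11 without Control replicate 2). The other heavy chain, SLC3A1, whose partner in kidney and gut is SLC7A9, rested on 3 and 3 fragments in GAP43 cells and 1 and 1 in Control cells. It shares 29.4% of its exon bases with PREPL on the opposite strand, and the sources used here do not say whether counting used strand.

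Of the 7 light chains listed for these heavy chains, 4 were tested: SLC7A5, SLC7A6, SLC7A8 and SLC7A11. SLC7A8 (LAT2), an exchanger of small and large neutral amino acids, was at 34.0 and 34.5 FPKM in GAP43 cells, against 22.5 and 19.9 FPKM in Control cells. The GAP43 libraries were nearly equal and both above both Control libraries, with means of 34.3 ± 0.316 and 21.2 ± 1.81 FPKM (SD, n = 2 each), a ratio of 1.62. Its log2 fold change was 0.67 (SE 0.18, limma unadjusted p = 0.00865, adjusted p = 0.692), and the unadjusted p was 0.0641 without Control replicate 1 and 0.141 without Control replicate 2. The gene lies on the minus strand at chr14:23125295-23183674 (GRCh38). SLC7A5 (LAT1), the main carrier of leucine and other large neutral amino acids in tumours, was at 126 and 153 FPKM in GAP43 cells and 154 and 208 FPKM in Control cells. Its groups did not overlap, but GAP43 replicate 2 and Control replicate 1 nearly met, and the means were 140 ± 19.0 and 181 ± 38.5 FPKM (SD, n = 2 each; log2 fold change -0.36, SE 0.26, limma unadjusted p = 0.212, adjusted p = 0.710). Its unprocessed pseudogene SLC7A5P1 was listed at 9.29 and 11.7 FPKM in GAP43 cells and 9.26 and 10.2 FPKM in Control cells, so reads could be split between the copies.

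SLC7A6 (y+LAT2), which exchanges cationic for neutral amino acids, was at 14.6 and 19.3 FPKM in GAP43 cells and 16.5 and 13.3 FPKM in Control cells. Its groups overlapped (log2 fold change 0.17, SE 0.21, limma unadjusted p = 0.453), and 44.4% of its exon bases are shared with the opposite-strand gene SLC7A6OS. SLC7A11 (xCT), the cystine and glutamate exchanger that supplies cysteine for glutathione, is added after its values were seen. It was at 3.74 and 1.89 FPKM in GAP43 cells and 3.35 and 7.78 FPKM in Control cells, and the groups overlapped, with Control replicate 2 well above the other 3 libraries. Its log2 fold change was -0.74 (SE 0.38, limma unadjusted p = 0.102). It was -1.24 without Control replicate 1, -1.10 without GAP43 replicate 1 and -0.23 without Control replicate 2.

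The light chains that pair with SLC3A2 were summed, namely SLC7A5, SLC7A6, SLC7A7, SLC7A8, SLC7A10 and SLC7A11. Their sum was 2.50 and 2.50 times the FPKM of SLC3A2 in GAP43 cells, against 2.74 and 2.17 times in Control cells. This ratio overlapped between the groups, as did the FPKM ratios of SLC7A5, SLC7A6 and SLC7A11 to SLC3A2. The FPKM ratio of SLC7A8 to SLC3A2 was 0.475 and 0.412 in GAP43 cells and 0.314 and 0.173 in Control cells, without overlap. The FPKM ratio of SLC7A5 to SLC7A8, a measure chosen after the values were seen, was 3.71 and 4.44 in GAP43 cells and 6.85 and 10.5 in Control cells. SLC7A5 transcripts thus outnumbered those of SLC7A8 per length in every library, by less in both GAP43 libraries, with mean ratios of 4.07 ± 0.516 and 8.66 ± 2.56 (SD, n = 2 each).

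Among the cationic carriers and their relatives, 2 of 5 were tested. SLC7A1 (CAT1), which brings arginine and lysine into most cells, was at 16.9 and 20.7 FPKM in GAP43 cells and 17.2 and 27.2 FPKM in Control cells. The groups overlapped and Control replicate 2 was highest (log2 fold change -0.20, SE 0.26, limma unadjusted p = 0.460). SLC7A4, a relative with no established transport activity and likewise picked after its values were seen, was at 3.04 and 5.57 FPKM in GAP43 cells, against 2.94 and 2.83 FPKM in Control cells. The groups did not overlap, but GAP43 replicate 1 was higher than the Control libraries by a small step only (log2 fold change 0.41, SE 0.26, limma unadjusted p = 0.162). The log2 fold change was 0.76 without GAP43 replicate 1 and 0.055 without GAP43 replicate 2.

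In the SLC38 family, the sodium-coupled neutral carriers, 8 of 10 members were tested, and SLC38A3 was the only one with an unadjusted p under 0.05. SLC38A3 (SNAT3), a system N carrier of glutamine and histidine known from liver, kidney and astrocytes, was at 2.08 and 5.97 FPKM in GAP43 cells, against 1.39 and 1.21 FPKM in Control cells. No overlap was seen, and GAP43 replicate 2 was far above the other 3 libraries. The means were 4.02 ± 2.75 and 1.30 ± 0.122 FPKM (SD, n = 2 each), with a log2 fold change of 1.01 (SE 0.38, limma unadjusted p = 0.0361, adjusted p = 0.692). Without GAP43 replicate 2 the log2 fold change was 0.42 (limma unadjusted p = 0.108), and with no filter on low values the limma unadjusted p was 0.0813. SLC38A3 lies on the plus strand at chr3:50205246-50221486 (GRCh38).

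The other system N carrier, SLC38A5 (SNAT5), was much more abundant, at 81.9 and 59.1 FPKM in GAP43 cells and 88.7 and 89.6 FPKM in Control cells. Both GAP43 libraries were below the nearly equal Control libraries (log2 fold change -0.35, SE 0.24, limma unadjusted p = 0.182). The log2 fold change was -0.59 without GAP43 replicate 1. SLC38A2 (SNAT2), the system A carrier that cells raise when amino acids run short, was at 99.8 and 58.0 FPKM in GAP43 cells and 70.7 and 105 FPKM in Control cells. Its groups overlapped, since each group had 1 high and 1 low library (log2 fold change -0.18, SE 0.33, limma unadjusted p = 0.615). SLC38A1 (SNAT1), also a system A carrier and known for net glutamine uptake, was at 56.8 and 44.0 FPKM in GAP43 cells and 54.3 and 72.2 FPKM in Control cells. Its groups overlapped too (log2 fold change -0.32, SE 0.24, limma unadjusted p = 0.234). SLC38A10, which is among the less studied members, was at 17.9 and 30.3 FPKM in GAP43 cells and 20.1 and 18.5 FPKM in Control cells. GAP43 replicate 2 alone was high and the groups overlapped (log2 fold change 0.27, SE 0.27, limma unadjusted p = 0.356). The log2 fold change was 0.63 without GAP43 replicate 1. SLC38A6, SLC38A7 and SLC38A9, the last a lysosomal arginine sensor of mTORC1, had log2 fold changes between -0.06 and 0.19 with unadjusted p of at least 0.405.

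The third system A carrier, SLC38A4, was below the mean for testing and is named after its values were seen, at 0.667 and 0.0865 FPKM in GAP43 cells and 0.754 and 0.774 FPKM in Control cells. GAP43 replicate 2 was the low library, with 7 fragments against 61 in GAP43 replicate 1 and 66 and 62 in Control cells. SLC38A1, SLC38A2 and SLC38A4 lie in this order within chr12:46183063-46832408 (GRCh38), with gaps of 88171 and 391893 bases. Their mean levels were 56.9, 83.4 and 0.571 FPKM.

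Only 3 of the 16 SLC6 genes were tested. SLC6A8, the creatine carrier, was at 12.4 and 12.8 FPKM in GAP43 cells, against 18.8 and 16.6 FPKM in Control cells. The GAP43 libraries were nearly equal and below both Control libraries, with means of 12.6 ± 0.337 and 17.7 ± 1.61 FPKM (SD, n = 2 each), and the log2 fold change was -0.46 (SE 0.17, limma unadjusted p = 0.0348, adjusted p = 0.692). The limma unadjusted p was 0.0856 with FPKM divided by its library sum (log2 fold change -0.35) and 0.105 with voom on recovered fragments. It was 0.290 without Control replicate 1 and 0.129 without Control replicate 2. SLC6A8 lies on the plus strand at chrX:153688099-153696593 (GRCh38). SLC6A6, the taurine carrier, was at 10.1 and 10.1 FPKM in GAP43 cells and 9.99 and 9.61 FPKM in Control cells. The 4 libraries were within a narrow range, the GAP43 libraries slightly above the Control libraries (log2 fold change 0.04, SE 0.16, limma unadjusted p = 0.808). SLC6A9 (GLYT1), the glycine carrier, was at 2.25 and 1.90 FPKM in GAP43 cells and 2.23 and 4.35 FPKM in Control cells. Control replicate 2 alone was high (log2 fold change -0.44, SE 0.27, limma unadjusted p = 0.157, and -0.80 with limma unadjusted p = 0.0256 without Control replicate 1).

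SLC6A12 (BGT1), the betaine and GABA carrier that takes up betaine in hypertonic medium, was below the mean for testing but reached 1 FPKM in 1 library. It was at 0.344 and 1.02 FPKM in GAP43 cells, on 40 and 105 fragments, against 0.179 and 0.0980 FPKM in Control cells, on 20 and 10 fragments. The groups did not overlap, and GAP43 replicate 2 was far the highest. When genes of any level were fitted, its log2 fold change was 0.53 (SE 0.23, limma unadjusted p = 0.080, adjusted p = 0.763). In that fit SLC7A10, named after its values were seen, was the only carrier below the mean with an unadjusted p under 0.05 (limma unadjusted p = 0.0479, adjusted p = 0.763), on 9 and 9 fragments in GAP43 cells and 4 and 1 in Control cells.

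SLC36A1 (PAT1), a proton-coupled carrier of small amino acids found on lysosomes, was at 3.11 and 3.06 FPKM in GAP43 cells and 3.18 and 2.62 FPKM in Control cells. SLC36A4, its relative with high affinity for proline and tryptophan, was at 2.48 and 1.77 FPKM in GAP43 cells and 1.85 and 1.54 FPKM in Control cells. The groups overlapped for both genes, with limma unadjusted p of 0.700 and 0.377. In SLC43, whose members SLC43A1 (LAT3) and SLC43A2 (LAT4) carry branched-chain amino acids and phenylalanine without sodium, all 3 genes overlapped between the groups. SLC43A3, which is known to carry purine bases, was at 14.3 and 21.1 FPKM in GAP43 cells and 20.1 and 18.2 FPKM in Control cells, and SLC43A1 was at 9.89 and 15.0 FPKM in GAP43 cells and 10.4 and 17.8 FPKM in Control cells. SLC43A2 was at 1.60 and 2.03 FPKM in GAP43 cells and 1.61 and 2.57 FPKM in Control cells. For both SLC43A1 and SLC43A2 the second library of each group was the higher one, and the 3 log2 fold changes lay between -0.15 and -0.12. That of SLC43A3 was -0.40 without GAP43 replicate 2 (limma unadjusted p = 0.0473) and 0.13 without GAP43 replicate 1, and without Control replicate 2 those of SLC43A1 and SLC43A2 were 0.21 and 0.10.

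Of the 26 carriers below the mean for testing, 21 averaged under 0.1 FPKM and 5, SLC38A4, SLC6A12, SLC6A16, SLC7A7 and SLC7A9, averaged between 0.140 and 0.571 FPKM. SLC1A6, SLC6A15 and SLC7A3 had no fragment in any library, where a count of 0 allows up to 3 fragments, or 0.0155 to 0.0685 FPKM by gene and library. None of the 26 had more than 105 fragments in a library. Of the 23 with any fragment, both GAP43 libraries lay above both Control libraries for 8, beside 21.5% of all genes of that level, and below for 1, beside 8.23%. GAP43 replicate 2 was the highest library for 15, beside 43.6%. SLC7A7 and SLC7A8 lie 295474 bases apart within chr14:22773222-23183674 (GRCh38), at means of 0.283 and 27.7 FPKM.

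The libraries did not contribute evenly. Control replicate 2 was the highest library for 12 of the 26 tested members (46.2%), beside 32.6% of all genes, and GAP43 replicate 2 for 10 (38.5%), beside 31.3% of all genes. GAP43 replicate 1 was highest for 2 (7.69%), beside 18.7%, and Control replicate 1 for 2, beside 17.4%. Control replicate 2 was also the lowest library for 11 members, beside 22.7% of all genes, while GAP43 replicate 2 was lowest for 6, beside 43.8%, GAP43 replicate 1 for 7, beside 16.2%, and Control replicate 1 for 2, beside 17.4%. Control replicate 2 exceeded Control replicate 1 by more than 0.3 on the log2 scale, a bound chosen after the values were seen, for 9 of the 26 members (34.6%), beside 12.8% of all genes and 14 of the 140 other SLC genes. The 9 were SLC7A5, SLC3A2, SLC38A2, SLC38A1, SLC7A1, SLC43A1, SLC7A11, SLC6A9 and SLC43A2, with differences of 0.40 to 1.01. All 9 had a log2 fold change of GAP43 minus Control below 0, as did 64.5% of the 1732 genes past that bound, and since a high Control replicate 2 raises the Control mean this direction is in part set by the choice. Without Control replicate 2 the median log2 fold change of the 26 members was 0.09, and 7 of the 26 changed sign.

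**Figure D4:**
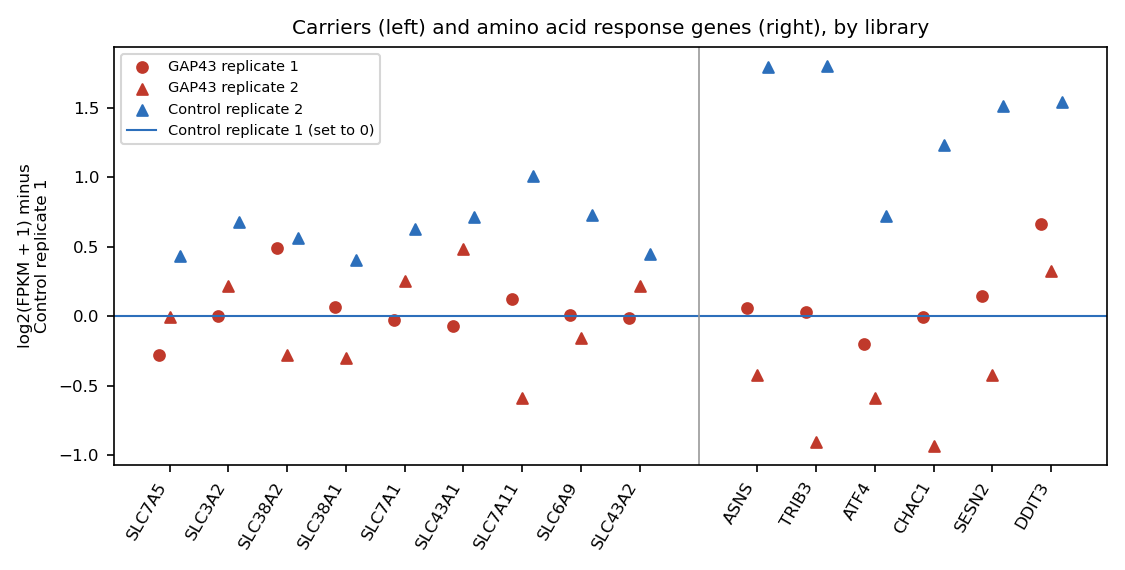
Log2(FPKM + 1) of GAP43 replicates 1 and 2 and Control replicate 2, each minus Control replicate 1 (y), by gene (x). The genes are the 9 carriers (left) and 6 amino acid sensing genes (right) with Control replicate 2 above Control replicate 1 by over 0.3. Among the carriers, Control replicate 2 is farthest above 0 for SLC7A11, at 1.01.

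Of 27 tested genes of amino acid sensing, 6 exceeded the same bound (22.2%), namely ASNS, TRIB3, ATF4, CHAC1, SESN2 and DDIT3, while Control replicate 2 was not above Control replicate 1 for 13 of the 27. ATF4 itself was at 156 and 119 FPKM in GAP43 cells, against 179 and 296 FPKM in Control cells. The groups did not overlap, and Control replicate 2 was far the highest (log2 fold change -0.76, SE 0.32, limma unadjusted p = 0.0545). ASNS, asparagine synthetase, was at 12.6 and 8.72 FPKM in GAP43 cells and 12.0 and 44.2 FPKM in Control cells. TRIB3, a feedback inhibitor of ATF4, was at 26.02 and 13.1 FPKM in GAP43 cells and 25.4 and 91.2 FPKM in Control cells. In both, GAP43 replicate 1 and Control replicate 1 were nearly equal and Control replicate 2 alone was high, with limma unadjusted p of 0.0972 and 0.0664. CHAC1, which degrades glutathione, was at 5.47 and 2.39 FPKM in GAP43 cells and 5.48 and 14.2 FPKM in Control cells (log2 fold change -1.09, SE 0.46, limma unadjusted p = 0.0565). ASNS and TRIB3 are named after their values were seen, and the part of this library difference in the carriers' values was not tested.

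At an unadjusted p under 0.05, 1 of the 27 sensing genes was higher in GAP43 cells and 1 lower (3.70% each, beside 3.05% and 2.84% of all genes), and the median log2 fold change was -0.20 beside -0.04 over all genes. SESN3, a sestrin that restrains mTORC1, was at 6.48 and 6.62 FPKM in GAP43 cells, against 4.51 and 3.84 FPKM in Control cells. Its GAP43 libraries were both higher (log2 fold change 0.55, SE 0.16, limma unadjusted p = 0.0141, adjusted p = 0.692). MLST8, a subunit of mTORC1 and mTORC2, was at 12.96 and 10.4 FPKM in GAP43 cells, against 17.1 and 16.7 FPKM in Control cells. Its GAP43 libraries were both lower (log2 fold change -0.51, SE 0.18, limma unadjusted p = 0.0303, adjusted p = 0.692).

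Of the 8 genes listed as partners or regulators of the carriers, 6 were tested, 0 were higher and 1 was lower, beside 3.05% and 2.84% of all genes. CD44, a membrane glycoprotein that stabilizes SLC7A11 at the surface, was at 1.37 and 0.642 FPKM in GAP43 cells, against 1.98 and 2.46 FPKM in Control cells. Both GAP43 libraries were below both Control libraries (log2 fold change -0.71, SE 0.26, limma unadjusted p = 0.0333, adjusted p = 0.692), and Control replicate 2 was the highest library for all 6, beside 32.6% of all genes. ARL6IP5, which restrains the glutamate carrier SLC1A1, was at 17.2 and 15.3 FPKM in GAP43 cells and 20.03 and 20.5 FPKM in Control cells (limma unadjusted p = 0.124). LAPTM4B, which recruits SLC7A5 with SLC3A2 to lysosomes, was at 34.7 and 24.6 FPKM in GAP43 cells and 34.3 and 34.7 FPKM in Control cells, where GAP43 replicate 2 alone was low (limma unadjusted p = 0.330).

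Neither the 11 tested amino acid and peptide carriers from other SLC families nor the 10 tested enzymes that use imported amino acids held a gene with a limma unadjusted p under 0.05 (0 and 0). Over all genes tested, 3.05% were higher and 2.84% lower at that bound, so lists this short could hold none at that share. SLC25A38, the mitochondrial glycine carrier, was at 15.5 and 15.6 FPKM in GAP43 cells and 19.5 and 20.5 FPKM in Control cells (log2 fold change -0.34, SE 0.17, limma unadjusted p = 0.0814). SLC25A29, a mitochondrial carrier of basic amino acids, was at 10.1 and 15.3 FPKM in GAP43 cells and 9.07 and 8.54 FPKM in Control cells (log2 fold change 0.46, SE 0.22, limma unadjusted p = 0.0878). The groups did not overlap for either gene. BCAT2, the mitochondrial branched-chain aminotransferase, was at 8.47 and 10.1 FPKM in GAP43 cells and 12.2 and 11.8 FPKM in Control cells (limma unadjusted p = 0.0843). GOT2, the mitochondrial aspartate aminotransferase, was at 71.9 and 50.9 FPKM in GAP43 cells and 81.9 and 84.5 FPKM in Control cells (limma unadjusted p = 0.104). Both enzymes were below both Control libraries in both GAP43 libraries.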

How the data were processed

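Poly(A) RNA of 4 SW620 libraries was sequenced from both ends, and the deposited values are FPKM per gene and library as made by the authors. The build hg19, Cufflinks 1.1, Cuffdiff and TopHat2 2.0.13 are named in the submitters' processing notes. How fragments were counted, with which annotation and strand setting, is not given in the sources used here. GENCODE release 29 held 33057 of the 33845 IDs, 96.4% of them with an equal start, so coordinates are GRCh38. FPKM times gene length, over the smallest step of each library, gave fragments that were whole within 0.01 for 100% of values. These cover counting error only and are not independent molecules.

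The 13507 genes that averaged 1 FPKM or more were compared as log2(FPKM + 1), a scale that understates the change of low genes, with limma 3.58.1 in R 4.3.3 (trended prior variance, prior degrees of freedom 4.22), two-sided, with Benjamini-Hochberg adjustment over all 13507. The fit was tested on simulated data. Summaries used Python 3.11.15 and pandas 2.3.3, and figures matplotlib 3.10.9. Alternatives were a pseudocount of 0.1, no filter, a mean of at least 5 FPKM, protein-coding genes alone, other scalings, a constant prior variance, a replicate block, limma voom on recovered fragments and leaving out each library. Libraries of equal number deviated together with r = -0.16 (2 pairs), and nothing in the labels ties them.

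Values per library are given for members with an unadjusted p under 0.05, the 4 most abundant tested members of each family, heavy chains, and members under the filter that reached 1 FPKM in a library; from each pathway list, for genes with an unadjusted p under 0.05 and up to 2 others of smallest p. Members, lists and rules were chosen with earlier results of these data known. Nothing says that replicates are separate cultures, so p-values measure only how far these samples spread, possibly for technical reasons. Pairs of libraries differed by a chi-square per degree of freedom of 13.3 to 75.5, where sampling noise alone gives about 1. Promoter sequences are from RefSeq (GRCh38.p14), in which 39 of 52 members were matched. Those not matched included SLC1A2, SLC38A3, SLC3A1, SLC43A3, SLC6A12, SLC6A15, SLC6A3, SLC6A6, SLC7A11, SLC7A2, SLC7A3 and SLC7A4.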

Additional observations from a re-analysis of the deposited data

How the results depend on the processing

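The number of carriers lower at an unadjusted p under 0.05, 1 as reported, was 0 with FPKM divided by its sum, beside 1.58% of all genes. With voom on recovered fragments it was 0, beside 1.38%. The number higher, 2 as reported, was 1 with a mean of at least 5 FPKM, beside 2.06% of all genes. Both numbers moved with each library left out. The carriers' median log2 fold change, -0.09 as reported, was 0.012 with no filter and -0.15 with a mean of at least 5 FPKM. It was -0.00031 with FPKM divided by its sum, 0.033 with voom, and -0.14 to 0.088 when 1 library was left out. The median over all genes was 0.018 with no filter, -0.13 with that mean and 0.060 with FPKM divided by its sum. When 1 library was left out it was -0.069 to -0.014. Over all genes, 412 were higher and 383 lower as reported, 568 and 214 with FPKM divided by its sum, 345 and 458 with median-ratio scaling, and 612 and 187 with voom, which moved the median of all genes to 0.10, against -0.04 as reported. No carrier passed the adjusted threshold under any alternative but the replicate block. Without GAP43 replicate 1 the counts over all genes were 1565 higher and 2513 lower, and without Control replicate 2 they were 270 and 77. The library totals behind FPKM differed from the recovered fragment sums. One fragment stood for 51.2 FPKM times bases in GAP43 replicate 2 and 51.8 in Control replicate 2. Their fragments summed to 17473071 and 20843857, and their FPKM to 264760 and 307463. In GAP43 replicate 1 and Control replicate 1 the steps were 45.4 and 47.4, with 21883137 and 21296930 fragments. The cause of these shifts was not tested.

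The replicate block left 2 carriers higher and 1 lower, with 655 genes higher and 380 lower over all genes, and with it SLC6A8 left the call (limma unadjusted p = 0.0902), SLC7A11 entered it (limma unadjusted p = 0.00392) and SLC38A3 had an adjusted p of 0.0355, 1 of 152 genes past the adjusted threshold (limma). The numbers are not known to pair the libraries. Blocking on crossed replicate numbers, an alternative chosen after seeing the data, gave 2 carriers higher and 2 lower, with 668 and 737 over all genes. A pseudocount of 0.1, a constant prior variance, median-ratio scaling and protein-coding genes alone changed the call of none of the 26 carriers and the direction of none. Among the 26, leaving out Control replicate 2 turned the direction of 7, GAP43 replicate 2 of 3, GAP43 replicate 1 of 2, voom of 2 and FPKM divided by its sum of 1. Family shares and the ratio of light chains to SLC3A2 were also taken from fragments in place of FPKM. Their GAP43 minus Control differences then moved by less than 1 replicate SD. The shares themselves depend on the measure, since fragments are not scaled to gene length. In GAP43 replicate 1, SLC1A5 was at 269 FPKM on 19788 fragments and SLC38A1 at 56.8 FPKM on 12552 fragments. With 1 library left out, the lone library is assumed to vary like the other group. With 2 libraries a group, differences within the spread of replicates were not detectable.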

Other observations

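Among the 140 tested genes of the other SLC families, 4 were higher and 4 lower in GAP43 cells at a limma unadjusted p under 0.05 (2.86% each, beside 3.05% and 2.84% of all genes), all with an adjusted p of 0.692. SLC16A1 (MCT1), the proton-linked lactate carrier, was at 60.8 and 75.2 FPKM in GAP43 cells, against 47.9 and 45.6 FPKM in Control cells (log2 fold change 0.52). SLC5A3, the sodium and myo-inositol carrier, was at 33.9 and 25.0 FPKM in GAP43 cells, against 13.96 and 17.8 FPKM in Control cells (log2 fold change 0.84). SLC52A3, a riboflavin carrier of the gut, was at 8.87 and 11.5 FPKM in GAP43 cells, against 6.00 and 6.08 FPKM in Control cells (log2 fold change 0.66). SLC25A11, the mitochondrial oxoglutarate carrier, was at 31.7 and 22.9 FPKM in GAP43 cells, against 42.7 and 40.4 FPKM in Control cells. Both GAP43 libraries were above both Control libraries for the first 3 genes and below them for SLC25A11. These 4 genes were picked from the 8 after their values were seen.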
